A study of Danio rerio with 20 samples.

Results

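Pigment cell genes were read out in 20 RNA-seq libraries of whole zebrafish larvae (Danio rerio, strain AB wild type) at 96 hours post fertilization (hpf). The 10 genes were chosen by symbol, with earlier results of these data known, out of 22851 in the deposited table. Each is represented by its most abundant transcript, averaged over the 20 libraries. They are 6 genes of melanophores (tyr, dct, tyrp1b, pmela, mitfa and slc24a5), 3 of xanthophores (gch2, xdh and csf1ra) and 1 of iridophores (pnp4a). All 10 passed the filter on low values, and all 10 are described here. The wider gene lists below were also chosen with earlier results known. Counts of calls set beside the share over all genes are therefore a description and no test.

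Larvae had been exposed from 6 to 96 hpf to a mixture of persistent organic pollutants (POP) or to perfluorooctanesulfonic acid (PFOS) alone, and each library was made from 10 larvae. The 5 groups of 4 libraries were POP10 and POP70, the mixture at 10 and 70 times average Scandinavian blood levels, PFOS10 and PFOS70, PFOS alone in the amounts it has in those mixtures, and Control, kept in 0.1% DMSO. A solvent level is labelled only for Control. No clutch, day or batch is labelled either, so p-values reflect how these pools of larvae vary, which may be technical, and a batch that coincided with a group cannot be told apart from it.

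Zebrafish carry 3 main kinds of pigment cell, all derived from the neural crest. Black melanophores make melanin in melanosomes, and the retinal pigment epithelium uses many of the same enzymes. Yellow xanthophores hold pteridines, made from GTP, and carotenoids. Silvery iridophores hold stacks of guanine crystals and therefore depend on purine metabolism. In RNA from whole larvae, fewer cells of a type and less RNA per cell cannot be told apart.

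Values are log2 RPM, reads scaled to the same total in every library and not divided by transcript length, so that each gene is compared between groups only with itself. The total to which RPM refers was 8572287 to 11243573 reads per library. On the first principal component of all 19289 genes tested, which held 39.6% of the variance, the 4 PFOS10 libraries lay apart, at -61.5 to -49.4, while every other library lay at -21.9 or above. Transcripts with 0 reads were also more frequent in PFOS10, 4014 to 4120 per library, than in Control, 3422 to 3690.

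In PFOS10 larvae all 3 xanthophore genes and the melanin enzyme gene tyr fell relative to Control, while the other 5 melanophore genes and pnp4a did not pass the test. xdh was lower by 2.43-fold, csf1ra by 1.93-fold, gch2 by 1.91-fold and tyr by 1.44-fold. Of the 10 genes, 4 fell and 0 rose (limma, adjusted p under 0.05 over all genes), where 8.25% of the 19289 genes tested passed in either direction and 6.97% fell. In the same 4 genes the PFOS10 and Control values did not overlap, as in 9.11% of all genes in the lower direction. The split of all calls depended on the scaling, with 247 higher and 1344 lower as deposited, 1132 higher and 1087 lower after a shift of libraries to equal medians, and 253 higher and 533 lower after quantile normalization. Among the pigment genes 4 fell as deposited, 4 with equal medians and 3 after quantile normalization.

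**Figure D1:**
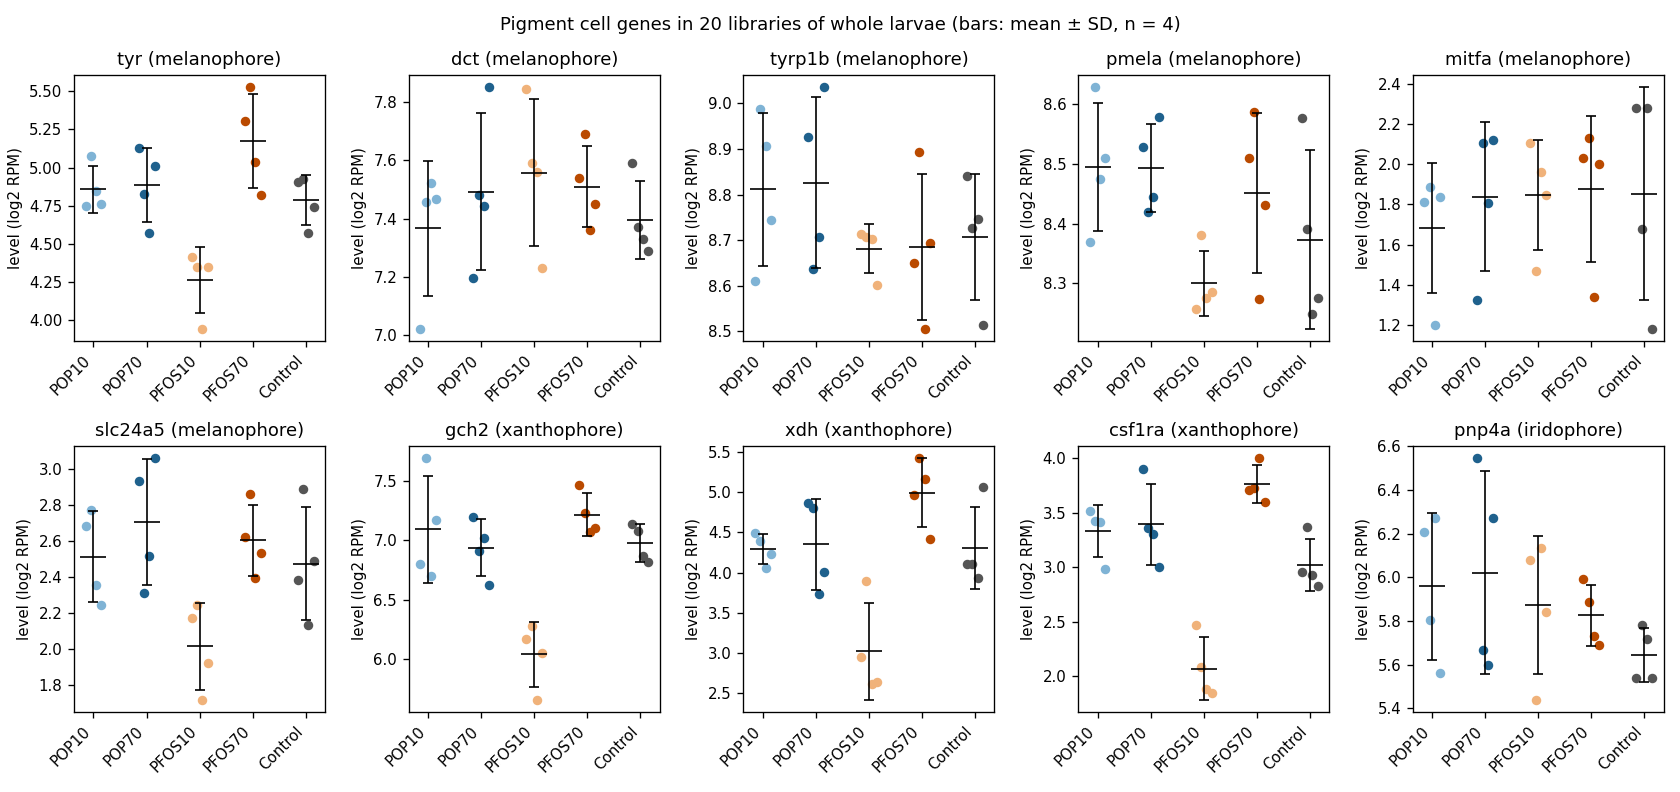
Level of each of the 10 pigment cell genes in log2 RPM (vertical axes, a separate range for each gene) in the POP10, POP70, PFOS10, PFOS70 and Control groups; points are libraries, bars the mean ± SD of 4 libraries. In tyr, gch2, xdh and csf1ra the 4 PFOS10 libraries lie below every Control library.

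gch2 encodes GTP cyclohydrolase, the entry step of pteridine synthesis, at chromosome 12, 25085751 to 25092570 of GRCz11. It stood at 6.17, 6.28, 5.66 and 6.05 log2 RPM in PFOS10 libraries 1 to 4, against 7.14, 7.08, 6.87 and 6.82 in Control libraries 1 to 4. The highest PFOS10 value lay below the lowest Control value. The log2 difference was -0.94 ± 0.17 (SE, limma adjusted p = 0.00485), from 505 to 785 reads in PFOS10 and 1143 to 1541 in Control. The call held in all 20 alternative fits, with differences of -1.07 to -0.81.

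csf1ra, at chromosome 14, 3143337 to 3174570 on the minus strand, encodes a receptor tyrosine kinase that xanthophores need, and macrophages express it too. Its values were 2.47, 2.09, 1.88 and 1.85 log2 RPM in PFOS10 and 2.96, 3.37, 2.93 and 2.83 in Control, again without overlap. These rest on few reads, 36 to 54 in PFOS10 and 72 to 113 in Control. The log2 difference was -0.95 ± 0.18 (SE, limma adjusted p = 0.0063), and it passed in all 20 alternatives.

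Macrophage and microglia genes were examined beside csf1ra, in a comparison in which 6.97% of all genes tested fell. Of 17 tested, apoeb, an apolipoprotein gene of microglia that other tissues use as well (log2 difference -0.77 ± 0.19 SE, limma adjusted p = 0.0206), and csf1ra itself fell, and the median difference was -0.31, with 13 differences below 0 and 4 above. apoeb missed the threshold without Control replicate 1, 2 or 4 or without PFOS10 replicate 3 (adjusted p up to 0.0818). The summed level of the list without csf1ra was 243 to 292 RPM in PFOS10 and 300 to 513 in Control, and without apoeb as well it was 63.4 to 68.3 against 72.7 to 89.5 RPM, which did not overlap. Among those that did not pass, and named after their values were seen, the macrophage markers mpeg1.1, marco and irf8 had log2 differences of 0.09 ± 0.27, 0.26 ± 0.30 and 0.00 ± 0.24 (SE, limma adjusted p = 0.87, 0.623 and 0.999). These markers do not stand for the list, in which 13 of 17 differences lay below 0. The part of macrophages in the csf1ra difference was not tested.

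xdh encodes xanthine dehydrogenase, which acts on pteridines in xanthophores and on purines in other tissues, liver among them. It lies at chromosome 17, 33340710 to 33374440. Its values were 2.94, 3.90, 2.61 and 2.63 log2 RPM in PFOS10 and 4.10, 4.11, 3.94 and 5.06 in Control. PFOS10 replicate 2 and Control replicate 4 stood highest in their groups, and the groups came within 0.04 of each other without overlapping. The log2 difference was -1.28 ± 0.30 (SE, limma adjusted p = 0.0153), but the adjusted p was 0.0735 when Control replicate 4 was left out and 0.051 when PFOS10 replicate 3 was.

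Hepatocyte genes were lower in the same libraries, in a comparison in which 6.97% of all genes tested fell. Of 10 tested, 7 fell in PFOS10, with a median log2 difference of -1.43. They included rbp4, whose protein carries retinol in blood (-0.70 ± 0.15 SE, limma adjusted p = 0.00928), apobb.1, an apolipoprotein B (-1.50 ± 0.37, 0.0201), and fga, a fibrinogen chain (-1.58 ± 0.40, 0.0222). apobb.1 missed without Control replicate 2 or 4 or PFOS10 replicate 3, and fga without Control replicate 4 or PFOS10 replicate 1 (adjusted p up to 0.0968). The summed level of the 10 genes was 1178, 1659, 1048 and 1065 RPM in PFOS10 libraries 1 to 4, against 2347, 2207, 1712 and 4369 RPM in Control libraries 1 to 4. It was highest in PFOS10 replicate 2 and in Control replicate 4, the same libraries in which xdh was highest in each group. The part of liver in the xdh difference was not tested.

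The wider list of xanthophore and pteridine genes was lower as well. Of 17 measured genes 10 fell and 0 rose, where 6.97% of all genes tested fell. The median log2 difference was -0.64, beside -0.03 over all genes tested. With voom, which called fewer of all genes than limma did, 7 of the 17 passed. Without the 3 genes above, 7 of 14 fell in limma, with a median of -0.42. The summed level of these 14 genes was 533 to 617 RPM in PFOS10 and 629 to 658 RPM in Control. The part of other tissues in these differences was not tested. The smallest p-values on the list were those of slc2a11b, a sugar transporter gene of xanthophores (-0.82 ± 0.14 SE, limma adjusted p = 0.00228), and aox5, an aldehyde oxidase family gene used as a xanthophore marker (-0.80 ± 0.14, 0.00376), followed by gch2. slc2a11b had 4.11 ± 0.27 log2 RPM in PFOS10 and 4.93 ± 0.13 in Control, and aox5 4.03 ± 0.22 and 4.83 ± 0.12 (SD, n = 4 each).

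The other 5 that fell are named after their values were seen. They were pts, which acts after GTP cyclohydrolase (-1.06 ± 0.26 SE, limma adjusted p = 0.0206), akr1b1, an aldo-keto reductase (-0.64 ± 0.13, 0.0073), the carotenoid-cleaving bco1 (-0.88 ± 0.25, 0.0337), the seipin relative bscl2l (-0.65 ± 0.20, 0.0436) and pcbd1, a dehydratase of pterin recycling (-0.38 ± 0.11, 0.039). Also named after their values were seen, pax7a and pax7b, transcription factor genes of the xanthophore lineage and of other neural crest and muscle cells, had differences of -0.03 ± 0.13 and 0.06 ± 0.09, with adjusted p-values of 0.922 and 0.694. pax7a and pax7b do not stand for the list, in which 14 of 17 differences lay below 0 and 3 above. The count of 10 depended on single libraries: it was 6 without Control replicate 1, 6 without Control replicate 2, 5 without Control replicate 4, 6 without PFOS10 replicate 1 and 5 without PFOS10 replicate 3. The count over all genes tested moved with single libraries too, as given in the last section. These drops therefore need not be particular to this list. With every 1 of the 8 libraries left out in turn, slc2a11b, aox5 and akr1b1 stayed past the threshold, pts passed in 3 of the 8 fits, pcbd1 in 3, bco1 in 1 and bscl2l in 0.

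Among the melanophore genes, tyr encodes tyrosinase, which catalyses the first steps of melanin synthesis, at chromosome 15, 43799258 to 43818697. It stood at 4.42, 4.35, 3.94 and 4.35 log2 RPM in PFOS10 and 4.90, 4.92, 4.57 and 4.74 in Control. The groups did not overlap, and PFOS10 replicate 3 was the lowest library. The log2 difference was -0.52 ± 0.15 (SE, limma adjusted p = 0.0344), from 154 to 208 reads in PFOS10 and 260 to 332 in Control. This call is marginal: it was lost in 5 of the 8 fits that left out a library, without Control replicate 1, 2 or 4 or PFOS10 replicate 1 or 3 (adjusted p of 0.0509 to 0.114), and with no filter (0.0518), quantile normalization (0.0765), no variance trend (0.0526) or voom (0.0587).

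The enzymes that act beside tyrosinase did not pass. dct encodes dopachrome tautomerase and had 7.85, 7.59, 7.56 and 7.23 log2 RPM in PFOS10, against 7.59, 7.37, 7.33 and 7.29 in Control, a difference of 0.16 with a 95% interval of -0.12 to 0.45. tyrp1b, a tyrosinase-related protein gene, averaged 8.68 ± 0.05 in PFOS10 and 8.71 ± 0.14 in Control (SD, n = 4 each), with an interval of -0.23 to 0.18 for the difference. pmela encodes the fibril protein on which melanin is laid down, and averaged 8.30 ± 0.06 in PFOS10 and 8.37 ± 0.15 in Control (interval -0.24 to 0.09). dct, tyrp1b and pmela each had over 1000 reads in every library, and none of the 3 intervals reaches the -0.52 estimated for tyr. The interval of tyr itself, -0.83 to -0.22, overlaps those of tyrp1b and pmela but not that of dct.

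tyr was also set against each of these genes within a library, a choice made after the values had been seen. The log2 ratio of tyr to dct was -3.29 ± 0.315 in PFOS10 and -2.61 ± 0.14 in Control, that to tyrp1b -4.42 ± 0.23 and -3.92 ± 0.18, and that to pmela -4.04 ± 0.21 and -3.59 ± 0.10 (SD, n = 4 each). In each of the 3 ratios every PFOS10 library lay below every Control library, as was already so for tyr alone. The log2 ratio of gch2 to pnp4a was 0.17 ± 0.54 in PFOS10 and 1.33 ± 0.19 in Control. Since the genes were paired with their values known, these ratios are a description and no test is given.

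mitfa, the transcription factor that specifies melanophores, and slc24a5, a cation exchanger of the melanosome whose loss lightens the skin, were measured with fewer reads. mitfa averaged 1.85 ± 0.27 log2 RPM in PFOS10 and 1.85 ± 0.53 in Control (SD, n = 4 each). With 28 to 42 reads per library in PFOS10 and 23 to 53 in Control, the interval of its difference, -0.55 to 0.54, includes the value estimated for tyr. slc24a5 had 2.18, 2.25, 1.72 and 1.92 in PFOS10 and 2.38, 2.89, 2.14 and 2.49 in Control, which overlapped. Its log2 difference of -0.46 ± 0.20 (SE) did not pass (limma adjusted p = 0.145).

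**Figure D2:**
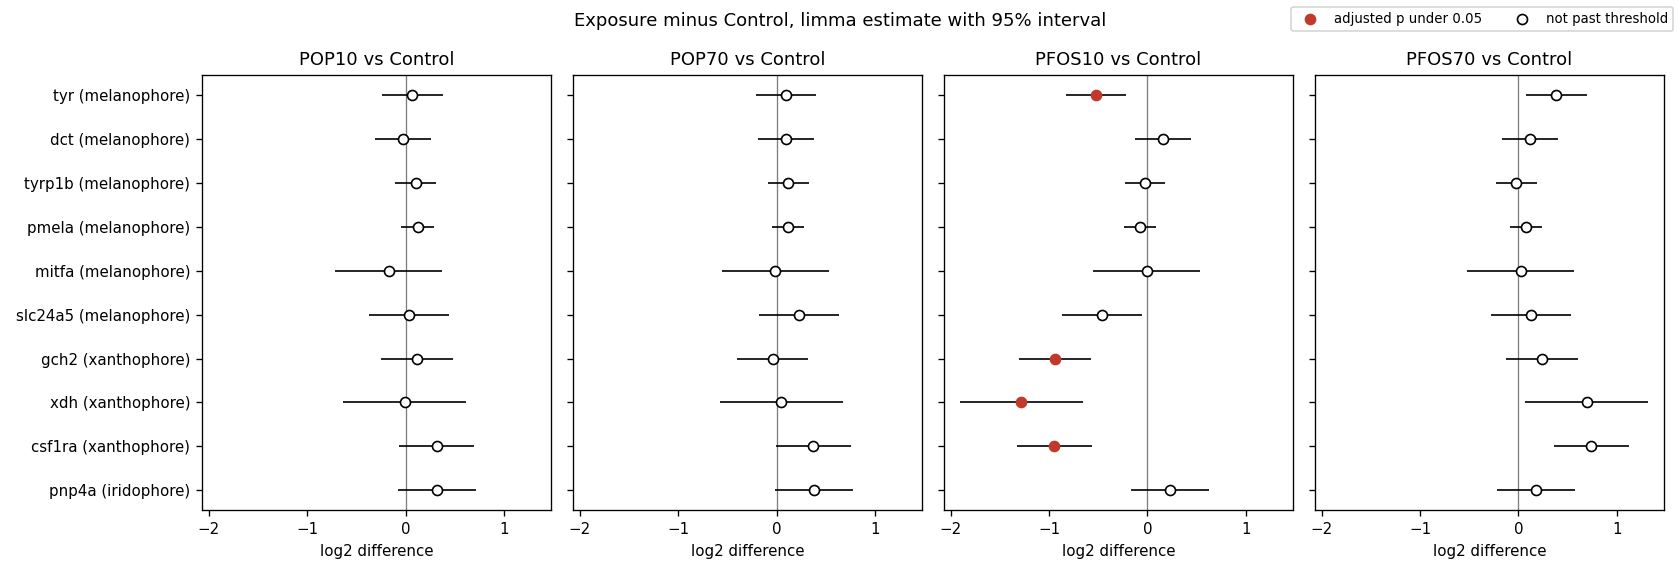
Log2 difference of each exposure from Control (horizontal axes) for the 10 pigment cell genes, with 95% intervals from limma; filled points have an adjusted p under 0.05. Only the PFOS10 panel holds filled points, those of tyr, gch2, xdh and csf1ra.

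The wider list of melanin and melanosome genes had its median near that of all genes. Of 18 tested genes, tyr and mlpha fell, trpm1b rose, and the median log2 difference was -0.05, beside -0.03 over all genes. Over all genes tested 8.25% passed in either direction and 6.97% fell. mlpha encodes melanophilin, which ties melanosomes to their myosin motor, and had 3.31 ± 0.30 log2 RPM in PFOS10 and 4.06 ± 0.19 in Control (SD, n = 4 each), a difference of -0.75 ± 0.14 (SE, limma adjusted p = 0.00477) that passed in all 20 alternatives. trpm1b, a channel gene of melanophores that the retina also uses, was higher by 0.34 ± 0.08 (0.0186), and missed without Control replicate 4 or PFOS10 replicate 1 or 3 (up to 0.0698) and when its lowest-numbered transcript was taken. Of 12 tested genes of the retinal pigment epithelium 0 passed in limma and 0 in voom, and 2 had an unadjusted p under 0.05. Their median difference was 0.22, and their summed level was 681 to 971 RPM in PFOS10 and 639 to 738 RPM in Control. The differences on this list ran from -0.63 to 0.45, with 3 below 0 and 9 above. Named after its values were seen and at the upper end of that range, rpe65a, the isomerase of the visual cycle, did not pass. It was at 8.29 ± 0.36 in PFOS10 and 7.84 ± 0.15 in Control (SD, n = 4 each).

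The iridophore gene pnp4a encodes a purine nucleoside phosphorylase, at chromosome 11, 24251141 to 24299538. It had 6.08, 5.44, 6.13 and 5.84 log2 RPM in PFOS10 and 5.54, 5.78, 5.72 and 5.54 in Control. PFOS10 replicate 2 was the lowest of these 8 libraries and the other 3 PFOS10 libraries the highest, so that the groups overlapped. Its difference of 0.23, with a 95% interval of -0.17 to 0.63, did not pass (limma adjusted p = 0.477). Of 13 iridophore genes tested 0 passed in limma and 0 in voom, where 8.25% of all genes tested passed in limma in either direction. On this list 3 had an unadjusted p under 0.05, and the median was -0.26, beside -0.03 over all genes tested. The differences on this list ran from -0.72 to 0.31, with 8 below 0 and 5 above. Among its genes, again named with values known, ltk, the receptor kinase that iridophores require, differed by -0.32 ± 0.17 (SE, limma adjusted p = 0.261). ednrba, an endothelin receptor gene at the lower end of that range, differed by -0.72 ± 0.28 (0.107). ltk and ednrba do not stand for the list. Its summed level without pnp4a was 412 to 480 RPM in PFOS10 and 401 to 443 RPM in Control, which overlapped.

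Over all genes tested in PFOS10 against Control, 6.97% fell and the median difference was -0.03. Beside that, purine synthesis genes had 2 of 16 lower and 0 higher, with a median of -0.10. Those that fell were adss, adenylosuccinate synthase (-0.54 ± 0.13 SE, limma adjusted p = 0.0183), and adsl, adenylosuccinate lyase (-0.35 ± 0.11, 0.044). Of 18 neural crest and pigment cell regulators, erbb3b, a neuregulin receptor gene (-0.69 ± 0.18, 0.0245), and kita, the Kit receptor of melanophores (-0.86 ± 0.25, 0.0394), fell and 0 rose, with a median of -0.05. Of 11 tested hormone and receptor genes that set pigment state, 3 fell and 0 rose, with a median of -0.10. These were pomca, the precursor of melanocyte-stimulating hormone (-1.05 ± 0.28, 0.0283), asip2b, an agouti family gene (-0.56 ± 0.15, 0.0298), and pmchl, of the melanin-concentrating hormone family (-1.01 ± 0.30, 0.0391). Each of these 7 genes missed the threshold in 3 to 6 of the 8 fits that left out a library. With voom 0 of the 11 hormone and receptor genes, 1 of the 18 regulators and 1 of the 16 purine genes passed, and after quantile normalization all of the 7 but adss missed. Voom and quantile normalization each called fewer of all genes than the main fit.

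Skin keratinocyte genes were examined as well, in a comparison in which 6.97% of all genes tested fell. Of 12 tested, 5 fell and 0 rose, with a median log2 difference of -0.59. Their summed level was 21920, 13860, 18040 and 36310 RPM in PFOS10 libraries 1 to 4, against 28530 to 30650 RPM in Control, so that PFOS10 replicate 4 lay above every Control library and the other 3 below. The clearest was krt15, a keratin gene (-0.95 ± 0.18 SE, limma adjusted p = 0.00576), followed by krt91 (-0.67 ± 0.15, 0.0145) and krt8 (-0.55 ± 0.13, 0.0179). krt15 passed with each library left out, krt91 missed without Control replicate 4, and krt8 without Control replicate 2 or 4 or PFOS10 replicate 1 (adjusted p up to 0.0622). Their part in the pigment gene differences was not tested.

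**Figure D3:**
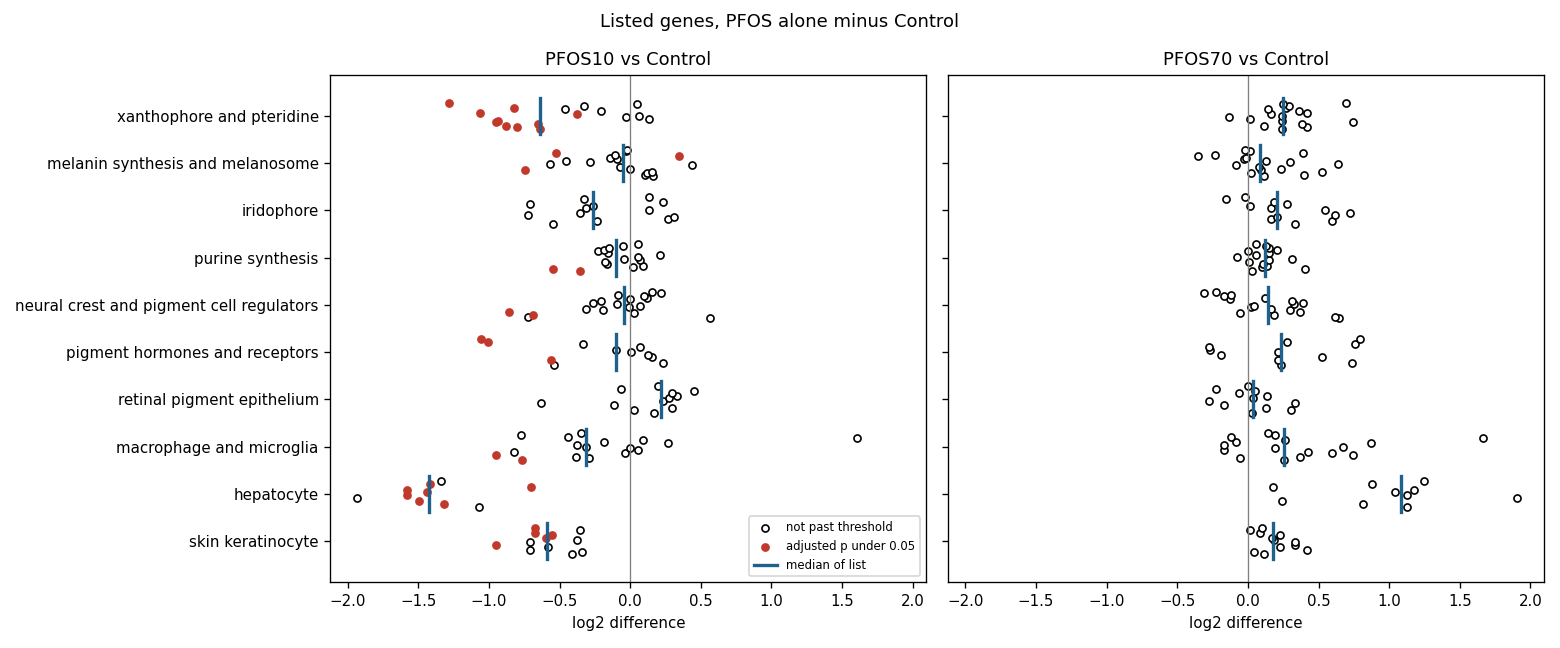
Log2 difference from Control (horizontal axes) of every tested gene of 10 gene lists, in PFOS10 (left panel) and PFOS70 (right panel); each point is a gene, filled where the adjusted p was under 0.05, and the vertical bar is the list's median. In PFOS10 the xanthophore and pteridine list has its median at -0.64 and the melanin list at -0.05.

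At the higher PFOS level no pigment gene passed. In PFOS70 0 of 10 were called by limma and 0 by voom, in a comparison in which 0% of all genes passed by adjusted p. An unadjusted p under 0.05 was found for 3 of the 10. Counts by unadjusted p, here and elsewhere, have no like share over all genes beside them and are a description. csf1ra stood at 3.71, 3.73, 4.00 and 3.60 log2 RPM in PFOS70, each above the highest Control value of 3.37. Its log2 difference of 0.74 ± 0.18 (SE) had an unadjusted p of 0.000623 and an adjusted p of 0.204. csf1ra was the only 1 of the 10 without overlap, where 5.13% of all genes lay wholly above Control.

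The other members with an unadjusted p under 0.05 in PFOS70 were tyr and xdh. tyr had 5.31, 5.53, 5.03 and 4.82 log2 RPM in PFOS70, of which 3 lay above the Control libraries (difference 0.39 ± 0.15 SE, limma adjusted p = 0.319). xdh had 4.96, 5.43, 5.16 and 4.42, of which 2 lay above all Control libraries (0.69 ± 0.30, 0.379). The summed level of hepatocyte genes was 4081, 5103, 3871 and 2977 RPM in those libraries, highest and lowest where xdh was highest and lowest. Between PFOS70 replicates 1 and 3 the order was the other way. The part of liver in the xdh values was not tested here either. gch2 had 7.46, 7.23, 7.07 and 7.10, which overlapped Control (0.24 ± 0.17, 0.624). Of the 17 xanthophore and pteridine genes 0 passed in limma and 0 in voom, 7 had an unadjusted p under 0.05, and the median was 0.25.

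PFOS70 and PFOS10 were then compared directly. gch2, xdh, csf1ra, tyr and slc24a5 were higher in PFOS70, 5 of 10 genes, beside 34.4% of all genes called in either direction and 23.6% called higher. gch2 was higher by 1.18 ± 0.17 on the log2 scale (SE, limma adjusted p = 9.13e-05), and the differences were 1.97 ± 0.30 (0.000106) for xdh, 1.69 ± 0.18 (1.19e-05) for csf1ra, 0.91 ± 0.15 (0.000174) for tyr and 0.59 ± 0.20 (0.025) for slc24a5. In all 5 the PFOS70 and PFOS10 libraries did not overlap, and 20.6% of all genes lay wholly higher. slc24a5 lost its call without PFOS10 replicate 3, without PFOS70 replicate 1 or without PFOS70 replicate 2 (adjusted p up to 0.0862), and after either other scaling. dct, tyrp1b, pmela, mitfa and pnp4a had adjusted p-values of 0.148 to 0.98.

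Neither level of the mixture moved a pigment gene past the threshold. In POP10 0 of 10 passed in limma, 0 in voom and 0 had an unadjusted p under 0.05, beside 0% of all genes passing. In POP70 the numbers were again 0, 0 and 0, beside 0.0156% of all genes. The log2 differences ran from -0.17 (mitfa) to 0.32 (pnp4a) in POP10 and from -0.04 (gch2) to 0.38 (pnp4a) in POP70. For gch2 the 95% intervals were -0.25 to 0.48 in POP10 and -0.40 to 0.32 in POP70, and for tyr -0.24 to 0.38 and -0.21 to 0.41. All 10 genes overlapped Control in POP10 and in POP70, where 6.94% and 5.57% of all genes did not.

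pnp4a did not pass in either mixture group, and its libraries were spread unevenly. Its values were 6.21, 5.80, 6.27 and 5.56 log2 RPM in POP10 and 6.55, 5.67, 5.60 and 6.27 in POP70, against 5.54 to 5.78 in Control. In each mixture group 2 libraries lay well above Control and the other 2 near it (limma adjusted p = 0.575 in POP10 and 0.498 in POP70). Between POP70 and POP10 0 of 10 genes passed in limma and 0 in voom, and 0 had an unadjusted p under 0.05, beside 0% of all genes passing.

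The mixture was also set against PFOS at the matched level. gch2, xdh, csf1ra and tyr were higher in POP10 than in PFOS10, 4 of 10 genes beside 31.4% of all genes called and 19.8% called higher. gch2 had 6.80, 7.69, 6.70 and 7.17 log2 RPM in POP10, csf1ra 3.52, 3.43, 3.41 and 2.99, xdh 4.50, 4.39, 4.06 and 4.23, and tyr 4.75, 5.07, 4.84 and 4.76. All of these lay above the PFOS10 libraries, as 16.8% of all genes did. gch2 differed by 1.05 ± 0.17 on the log2 scale (SE, limma adjusted p = 0.000449), and the differences were 1.27 ± 0.30 (0.00409) for xdh, 1.26 ± 0.18 (0.000195) for csf1ra and 0.59 ± 0.15 (0.0056) for tyr. Between POP70 and PFOS70 0 of 10 genes passed in limma and 0 in voom, 1 had an unadjusted p under 0.05, and 0.181% of all genes passed.

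The difference between the 2 dose effects, PFOS70 less PFOS10 minus POP70 less POP10, was tested after the data had been seen. It passed for xdh (1.92 ± 0.42 SE, limma adjusted p = 0.00635), csf1ra (1.63 ± 0.26, 0.00151), gch2 (1.33 ± 0.25, 0.00288) and tyr (0.88 ± 0.21, 0.00901). These were 4 of 10 genes, beside 15.9% of all genes called in that contrast and 13.2% called with a positive difference.

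Within groups, no gene was among the 5 most like more than 1 of gch2, tyr and pnp4a. Lists this short out of so many genes can easily share none, so this does not show that the 3 genes vary apart. After each value was set relative to its group mean, 12656 genes averaging 3 log2 RPM or more were ranked by likeness to each over the 20 libraries. Pearson r is given as a description, since the genes of a library share its depth and its pool of larvae. Members and genes with clone names were left out of the lists. Between the members themselves r was 0.52 for tyr and gch2, 0.29 for tyr and pnp4a, and -0.30 for gch2 and pnp4a. The genes most like gch2 were slc22a7a (r = 0.78), bscl2l (0.75), dnajc1 (0.75), phf23b (0.74) and slc2a15b (0.73), of which bscl2l and slc2a15b are on the xanthophore list. The genes most like pnp4a were top2a, the DNA topoisomerase of dividing cells (0.91), defbl1, a defensin-like gene of iridophores (0.91), sulf1 (0.91), the mitotic cyclin gene ccnb1 (0.91) and lypc (0.91). Those most like tyr were mlx (0.86), srp72 (0.86), ccz1 (0.85), obscna (0.84) and pdgfc (0.83), of which none is on a pigment list used here.

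**Figure D4:**
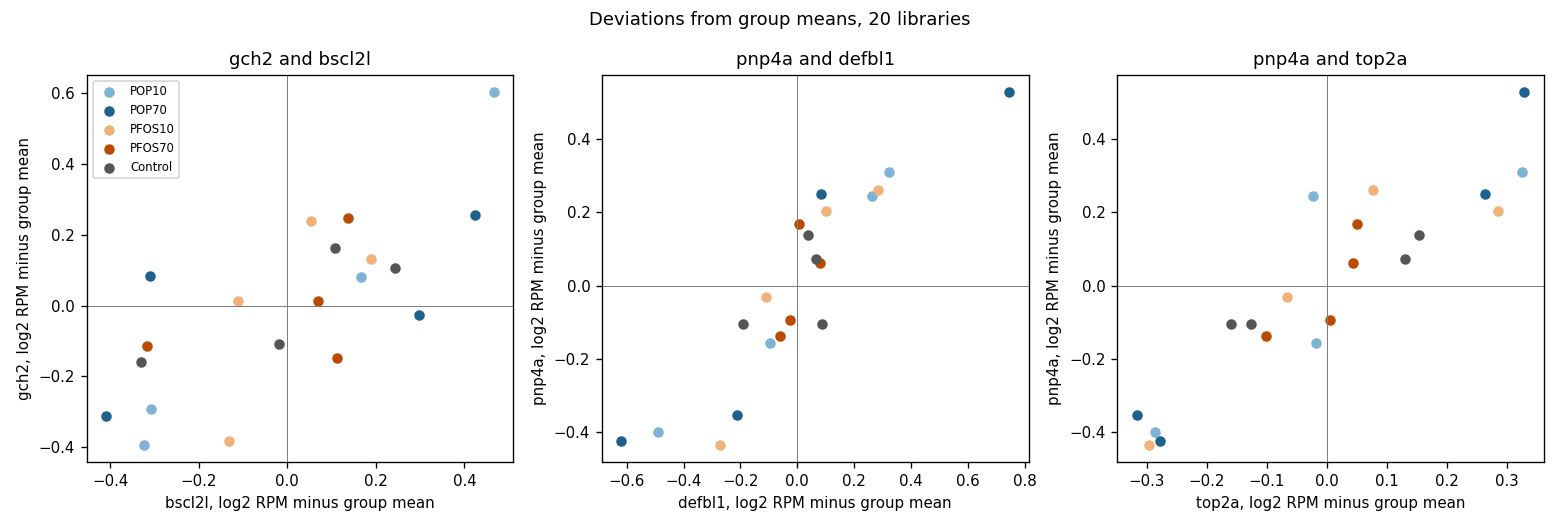
Deviation of gch2 from its group mean against that of bscl2l, and of pnp4a against those of defbl1 and top2a (all axes in log2 RPM minus the group mean); each point is 1 of 20 libraries, coloured by group. Libraries high in pnp4a within their group were mostly also high in defbl1 and top2a.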

How the data were processed

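Larvae, exposures and groups are as the labels give them. RNA was selected with poly-T beads and libraries were sequenced in pairs of reads, per the labels' protocols. The authors deposited log2 values for 48838 transcripts in 1 table. Build GRCz11 and the tools STAR 2.5.4b, Trim Galore 0.4.5, R 3.5.0 and DESeq2 are named in the submitters' processing notes, without roles, and how the values were scaled is not stated there. The numbers themselves fit log2 RPM with 0 reads written as 0.9 reads: divided by the worth of 1 read, 100% of values of 1 to 1000 reads were whole within 0.05 reads. Columns summed to 3126333 to 3389948 RPM, and transcripts of 1 gene can share reads (xdh has a second transcript with equal values). The strand setting is not given. timeless overlaps pmela and si:dkey-76p14.2 overlaps pnp4a, so reads of those pairs may be mixed, and the other 8 genes are overlapped by no other gene of the table.

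A gene was tested if 4 or more libraries reached 0 log2 RPM, which left 19289 of 22851, with no further pseudocount. limma 3.58.1 in R 4.3.3 fitted 1 model with group as its term over 20 libraries (15 residual degrees of freedom) with a mean-variance trend, with Benjamini-Hochberg adjustment of two-sided p-values over all genes in each comparison and a threshold of 0.05. The fit was tested on simulated data. Intervals are at 95%, and counting precision covers reads, not molecules. Alternatives were no filter, a filter at 3 log2 RPM, values damped by 1 RPM, quantile normalization, equal medians, no trend, array weights, a replicate block, a fit of only the groups compared, the lowest-numbered transcript, the sum of transcripts, voom on recovered reads, and each library left out.

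The members and lists were chosen with earlier results of these data known. Named genes are all 10 members, up to 3 per list by smallest p past the threshold, and the 5 genes most like tyr, gch2 and pnp4a. Outside this rule, pts, akr1b1, bco1, bscl2l, pcbd1, pax7a, pax7b, mpeg1.1, marco, irf8, rpe65a, ltk and ednrba were named after their values were seen. No sequences were used here.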

Additional observations from a re-analysis of the deposited data

Results flagged for a closer look

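Of the 50 sets of 4 libraries (10 genes in 5 groups), 6 held a library far from the other 3 by Dixon's test, and chance alone gives about 1 set in 20. xdh was at 5.06 log2 RPM in Control replicate 4 and at 3.94 to 4.11 in the other Control libraries, and xdh lost its call without it. tyr was at 3.94 in PFOS10 replicate 3 (4.35 to 4.42 in the others), and it too lost its call without that library. Libraries not flagged for these genes mattered as well. tyr lost its call without Control replicate 1, 2 or 4 or PFOS10 replicate 1, and xdh without PFOS10 replicate 3. tyrp1b was at 8.60 in PFOS10 replicate 4 (8.70 to 8.71). mitfa was at 1.34 in PFOS70 replicate 3 (2.00 to 2.13) and at 1.20 in POP10 replicate 3 (1.81 to 1.89). dct was at 7.02 in POP10 replicate 1 (7.46 to 7.52).

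PFOS10 differed from the mixture at the matched level in 4 of 10 genes, by the POP10 less PFOS10 log2 difference: csf1ra (1.26), xdh (1.27), gch2 (1.05) and tyr (0.59). Of all genes, 31.4% were called in that comparison and 19.8% called higher. The dose effect of PFOS less that of the mixture passed in the same 4 genes: csf1ra (1.63), xdh (1.92), gch2 (1.33) and tyr (0.88). Of all genes, 15.9% were called in that contrast and 13.2% called with a positive difference. Both sets use the PFOS10 libraries, which lay apart on the first principal component, so they are not independent of each other.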

How the results depend on the processing

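The count of pigment genes past the threshold in PFOS10 against Control was 4, and 2 to 4 when 1 library was left out: 2 without Control replicate 4, 2 without PFOS10 replicate 3, and 3 without Control replicate 1 or 2 or PFOS10 replicate 1. gch2 and csf1ra passed in all 20 alternatives, xdh in 18 and tyr in 11. The count of xanthophore and pteridine genes that fell was 10, with 6 after quantile normalization and 5 to 11 when 1 library was left out; the cause was not tested. In the comparisons of each mixture level and of PFOS70 with Control, of POP70 with PFOS70 and of POP70 with POP10 the count was 0 under every alternative run, also in a fit without the PFOS10 libraries. It was 4 to 6 in POP10 against PFOS10, 4 or 5 in PFOS70 against PFOS10 and 4 throughout for the difference of dose effects. In the main fit 31.4%, 34.4% and 15.9% of all genes were called in these, in that order. Over all genes, 1591 were called in PFOS10 against Control, 786 after quantile normalization, 942 with voom, 933 with only those 2 groups fitted, 3661 with array weights, and 367 to 2516 when 1 library was left out. No sign of a called difference turned. Replicate numbers are shared by the groups, but libraries with the same number showed little tendency to deviate together. The median correlation was 0.04 over 40 pairs, and -0.02 over 120 pairs with other numbers. These medians are too coarse to exclude a weak pairing, and no clutch or day is labelled. With the replicate block the count was 4 in PFOS10 against Control and 5 in POP10 against PFOS10. mitfa, slc24a5 and csf1ra rest on 22 to 165 reads per library, which limits what their differences can show.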
